A study of Mus musculus with 6 samples.

Results

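BBC is a mouse cell line of stem cell leukemia and lymphoma (SCLL), and its response to the FGFR inhibitor BGJ398 is described here across genes. The table holds 17169 gene entries. Those with a mean of at least 1 FPKM (sequenced fragments scaled for transcript length and library size) over the BBC library with BGJ398 and the BBC library with DMSO were kept, which left 14765. The highest mean left out was 0.9998 FPKM and the lowest kept was 1.0001 FPKM, and every entry listed in BBC reached 1.02 FPKM in at least 1 of the 2 libraries. Of the others, 2390 lay below the minimum and 14 were at 0 in both libraries.

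The BBC culture carries the name BBC2 in the protocol and came from bone marrow of diseased Balb/c mice. It was kept for 24 h with BGJ398 or with DMSO, the solvent. The dose was 30 nM if the doses were written in the same order as the cultures, which is an assumption. A single library was made for each agent, from 1 line, so none of the differences has a replicate check and no test was made. The same design covers 2 further SCLL lines, ZNF and BCRF8C, also with 1 library per agent, for which that order would give 3 and 1.5 nM. The FGFR1 fusion partner in each line is not given in the sources used here. The comparison addresses which transcripts differ in SCLL cells with and without inhibition of FGFR1.

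FGFR1 is a receptor tyrosine kinase. In SCLL a chromosome translocation joins its kinase end to a partner protein that holds the kinase together, so that it signals without a ligand. Such kinases feed the RAS to ERK cascade, the PI3K to AKT pathway and STAT5, and BGJ398 (infigratinib) occupies the ATP pocket of FGFR kinases. Pre-B cells are B cell precursors that carry a heavy chain with the surrogate light chain proteins (Vpreb1, Igll1) and the signalling chains Cd79a and Cd79b on their surface. They divide in response to IL-7 and to that receptor, and leave the cycle as they rearrange a light chain gene.

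The labels do not name a cell type, and the B lineage was read from markers. All 13 pre-B markers were listed, and 12 had at least 5 FPKM in both libraries. Their summed level was 2784 FPKM in DMSO and 1558 FPKM with BGJ398. Rag1, a subunit of the recombinase, was the exception at 0.3599 and 1.69 FPKM. Of 6 mature B markers 4 were listed, and the kappa light chain constant gene Igkc was at 2234 and 3726 FPKM, so transcripts of a light chain were abundant beside those of the surrogate light chain. The mature B surface gene Ms4a1 was at 1.66 and 0.379 FPKM. Among markers of other cells, 4 of 7 T cell genes were listed, with only the kinase gene Lck above 5 FPKM (28.6 and 27.5), and their sum was 30.8 and 32.8 FPKM. Of 6 myeloid markers 3 were listed, summing to 6.67 and 6.94 FPKM, and of 4 erythroid markers 2, summing to 22.5 and 9.99 FPKM. Stromal markers summed to 2.82 and 6.56 FPKM over 2 listed of 4, and none of 3 mast cell markers had an entry. The summed levels of these T cell, myeloid and stromal markers were thus at most 32.8 FPKM in either library. Longer lists of such markers held more. The 12 passing genes of the T lineage list summed to 230 and 135 FPKM, with Lat at 145 and 76.2 FPKM. The 8 of the erythroid list summed to 794 and 163 FPKM, with Car2 at 434 and 98.0 FPKM and Tfrc at 333 and 47.1 FPKM. The part of these markers in the results was not tested.

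The whole distribution was lower and narrower in the BGJ398 library. The median was 9.14 FPKM with DMSO (quartiles 2.21 and 26.4) and 4.29 FPKM with BGJ398 (quartiles 2.05 and 10.2). Entries of at least 100 FPKM numbered 1052 with DMSO and 449 with BGJ398. FPKM are scaled to library size, so the lower median is not a measure of cell number or of RNA per cell, and its cause was not tested. For a single gene in bulk RNA, fewer cells of a type and less RNA per cell cannot be told apart. Differences are given as log2 ratios of FPKM + 1, BGJ398 over DMSO, a scale that understates the change of low genes. The median ratio was -0.87 (quartiles -1.55 and 0.10), and 73.3% of entries were lower with BGJ398. The ratio depended on level, from a median of 0.43 for entries with a mean of 1 to 2 FPKM, through -1.03 for 5 to 10 FPKM, to -1.85 for 100 FPKM and more. A second ratio was therefore taken from the loess curve of the ratio on the mean log2 level. This trend-removed ratio is 0 for a gene that did what other genes of its level did, and its quartiles were -0.53 and 0.54.

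**Figure D1:**
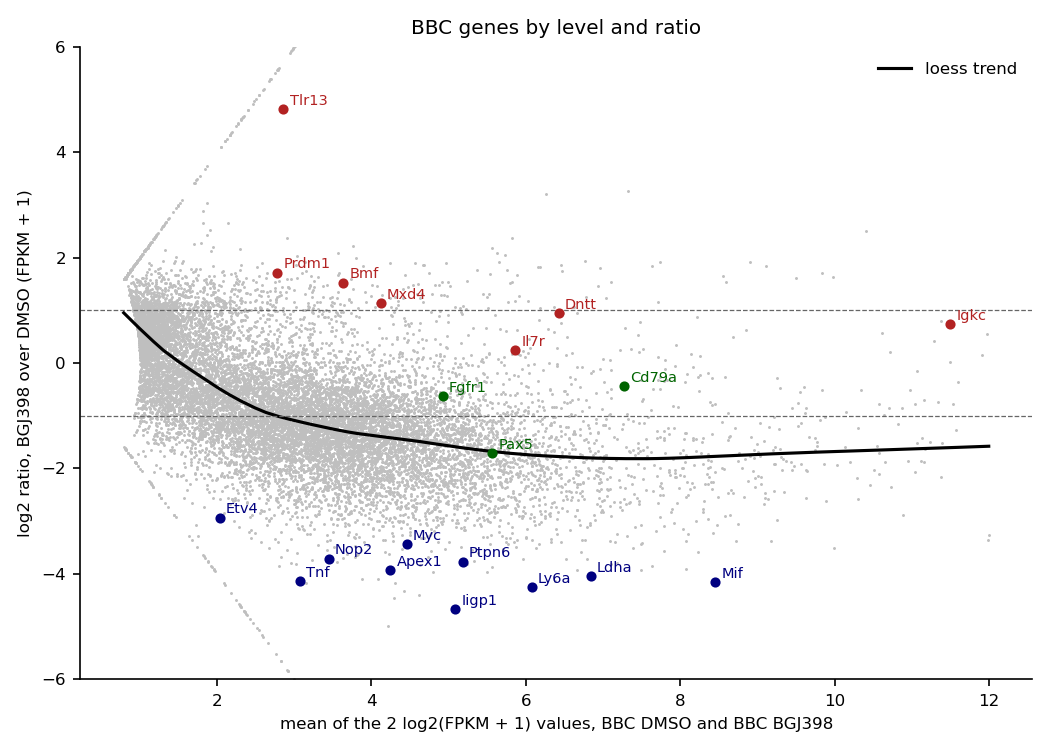
Each point is 1 of 14383 gene symbols in BBC, by the mean of its log2(FPKM + 1) values (x axis) and its log2 ratio, BGJ398 over DMSO (y axis). The curve is the loess trend, dashed lines mark 2-fold, 162 symbols lie outside the axes, and the labelled growth genes lie below the curve while Cd79a, Igkc and Dntt lie above it.

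As deposited, 1298 entries (8.79%) were at least 2-fold higher with BGJ398 and 6637 (45.0%) at least 2-fold lower. Median-of-ratios scaling turned these counts into 2842 higher and 2692 lower, and quantile normalization into 1995 and 2361. With the trend removed, 1848 (12.5%) were at least 2-fold higher and 1721 (11.7%) at least 2-fold lower. Past 2-fold in the same direction on both scales were 908 higher (6.15%) and 1518 lower (10.3%), and the counts of list members below are to be read against these shares. Where a list is described, its first median is of the ratio as deposited and its second of the trend-removed ratio. The plot of list medians shows 50 gene lists side by side.

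**Figure D2:**
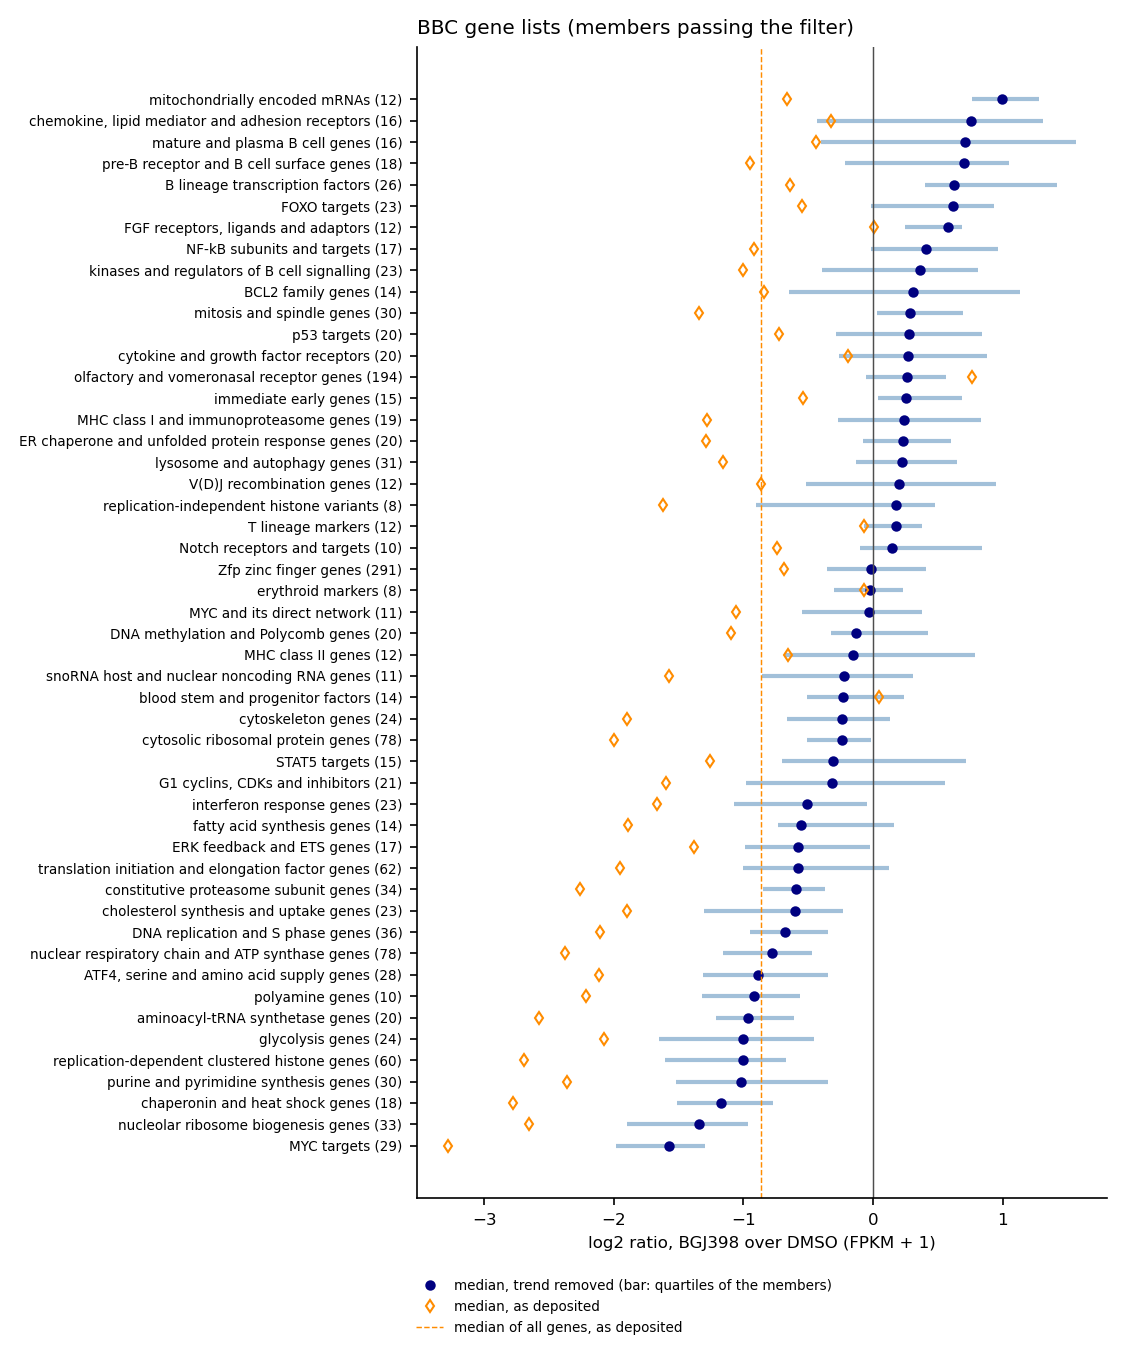
Median log2 ratio, BGJ398 over DMSO (x axis), of the BBC gene lists with at least 8 members passing the filter (number in brackets). Filled points are trend-removed medians with the quartiles of the members, open diamonds are medians as deposited, and the MYC target list lies lowest (-1.57) while mitochondrially encoded mRNAs lie highest (0.996).

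Fgfr1 and known fusion partner genes were lower as deposited and lay above the trend of their level. Coordinates of loci are NCBIM37. The level of Fgfr1 (ENSMUSG00000031565, chromosome 8, 26624126 to 26686186) moved from 36.7 to 23.3 FPKM (log2 ratio -0.63, trend-removed 0.92), a level that sums any fusion transcript and the normal one. Zmym2 and Bcr, which in other SCLL cells are known as fusion partners, went from 23.3 to 13.3 FPKM and from 23.6 to 15.2 FPKM, with trend-removed ratios of 0.65 and 0.83. The 12 FGF list members had medians of 0.0041 as deposited and 0.58 with the trend removed, and none was past 2-fold on both scales.

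Feedback genes of the ERK cascade split. Etv4 (ENSMUSG00000017724, chromosome 11, 101631056 to 101646685) and Etv5, ETS transcription factors switched on by FGF signals, went from 10.3 to 0.484 FPKM and from 25.9 to 2.71 FPKM, with trend-removed ratios of -2.44 and -1.66. Dusp7, a phosphatase of ERK, went from 17.7 to 2.06 FPKM. Dusp6, the best known ERK phosphatase of this loop, went from 85.8 to 24.5 FPKM, at least 2-fold lower as deposited (-1.77) but on the trend of its level (-0.09). Spry1, Spred1 and the adaptor gene Sh2b3, which hold back RAS and cytokine signals, were also at least 2-fold lower as deposited and less than 2-fold below the trend, at -0.67, -0.67 and -0.58. Dusp5, the nuclear ERK phosphatase, went only from 26.9 to 14.01 FPKM. Of 17 list members 4 (23.5%) were lower on both scales and 1 higher, with medians of -1.38 and -0.58. The higher member was Etv1, a further ETS factor gene named after its values were seen (from 0.627 to 3.43 FPKM, 1.44 and 1.33). None of 15 immediate early genes was lower on both scales, and Btg2, an antiproliferative gene, was higher (from 12.3 to 26.6 FPKM, trend-removed 2.48).

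STAT5 targets lay on both sides of the trend. Socs1 (ENSMUSG00000038037, chromosome 16, 10783901 to 10785629), which blocks JAK kinases, went from 48.6 to 2.99 FPKM (-3.64, trend-removed -2.30), and its relative Socs3 from 21.8 to 3.31 FPKM (trend-removed -1.21). Socs2 and Cish, of the same feedback family, went from 228 to 101 FPKM and from 3.296 to 1.83 FPKM, at 0.65 and -0.34. The cytokine gene Osm went from 6.12 to 1.14 FPKM. The kinase genes Pim1 and Pim2 went from 132 to 65.5 FPKM and from 23.2 to 16.02 FPKM, with trend-removed ratios of 0.78 and 0.93, and the IL-2 receptor chain gene Il2ra went from 20.5 to 28.4 FPKM (1.95). Of 15 members 3 were lower on both scales and 2 at least 2-fold higher on the trend-removed scale alone.

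Genes that FOXO factors switch on when AKT is quiet lay above the trend on balance, with medians of -0.55 and 0.62 over 23 members, a sign that differs between the scales. S1pr1, the sphingosine phosphate receptor that guides cells out of bone marrow, went from 5.42 to 17.02 FPKM (1.49, trend-removed 2.72) and was the 1 member higher on both scales. The IL-7 receptor gene Il7r went from 52.4 to 62.5 FPKM, trend-removed 1.97. Foxo1, Ccng2 and Cdkn1b were lower as deposited, at -0.41, -0.31 and -0.62, and above the trend at 0.97, 1.40 and 0.88. Ccr7, a FOXO target that acts in lymph node homing and was chosen after its values were seen because it lies under the 5 FPKM of the naming rule, was lower on both scales from a low level, from 3.15 to 0.9896 FPKM.

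The proximal signalling genes of B cells separated by member. Ptpn6 (ENSMUSG00000004266, chromosome 6, 124670725 to 124688732), which encodes the phosphatase SHP-1 that dampens B cell receptor signals, went from 133 to 8.82 FPKM (-3.77, trend-removed -2.16). In contrast Blk, the SRC family kinase of B cells, went from 16.2 to 27.8 FPKM (0.75, trend-removed 2.21), and Syk and the adaptor gene Blnk went from 40.8 to 24.6 FPKM and from 63.9 to 53.8 FPKM, above the trend at 0.87 and 1.48. Btk and Plcg2 lay on it at 0.05 and 0.11. On both scales 3 of 23 members (13.0%) were lower and none higher, close to the shares over all entries.

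Myc was lower with BGJ398 in BBC, and the list of known MYC targets had the lowest medians of the lists on both scales. The level of Myc (ENSMUSG00000022346, chromosome 15, 61816946 to 61821929), whose protein switches on genes of cell growth, moved from 71.3 to 5.66 FPKM (-3.44, trend-removed -1.98). Its heterodimer partner gene Max went from 39.3 to 10.1 FPKM (trend-removed -0.41). Mxd4, which encodes an antagonist that also pairs with MAX, went the other way, from 10.7 to 24.8 FPKM (1.14, trend-removed 2.53). All 29 passing MYC targets were at least 2-fold lower as deposited, and 23 (79.3%) on both scales, against 10.3% of all entries. The list was chosen with earlier results of these data known, so these shares describe its members and are not a test of MYC action. The medians were -3.28 and -1.57, and the median level went from 103 to 10.4 FPKM. Apex1, a DNA repair endonuclease gene, went from 72.97 to 3.87 FPKM. Bcat1, the first enzyme of branched chain amino acid breakdown in the cytosol, went from 42.5 to 2.18 FPKM, the mitochondrial chaperonin gene Hspd1 from 177 to 10.4 FPKM, and the spermidine synthase gene Srm from 37.5 to 2.41 FPKM. The smallest shift among the 29 was that of Cad, of pyrimidine synthesis, which went from 32.01 to 9.91 FPKM and lay on the trend at -0.18.

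Promoters of members that moved together are shown for the E-box CACGTG, the hexamer that MYC and MXD proteins bind with MAX. It reads the same on both strands. Windows of 250 bases before to 50 after the start site came from RefSeq (GRCm38.p6, another build than that of the table), 9584 of 14383 symbols passing in BBC had one, and a gene counts when any of its windows holds the motif. The E-box was in 8.09% of 27025 genes of that table, in 11.8% of the genes passing in BBC, in 17.1% of those lower on both scales with a window and in 8.43% of those higher. Among MYC targets 11 of 25 (44.0%) held it, and among nucleolar genes 7 of 28 (25%). The shares of other lists did not follow their ratio throughout. Of lists with medians below the trend, it was in 33.3% of tRNA synthetase, 25% of cholesterol, 24% of translation factor and 20.7% of replication genes with a window. Among p53 targets, with a trend-removed median of 0.28, 6 of 16 (37.5%) held it, and among lysosome and autophagy genes, with one of 0.22, 8 of 25 (32%), while in the nuclear respiratory chain list, with one of -0.78, 5 of 63 (7.94%) did. The 3 lower genes with an E-box that are described here, Nop2 (chr6:125131633-125131932, strand +), Ldha (chr7:46845554-46845853, strand +) and Apex1 (chr14:50924699-50924998, strand +), hold 1, 2 and 3 copies, and the higher gene Mxd4 (chr5:34187661-34187960, strand -) holds 1. Capitals mark the E-box. A match is a description of the letters and not of binding.
Nop2: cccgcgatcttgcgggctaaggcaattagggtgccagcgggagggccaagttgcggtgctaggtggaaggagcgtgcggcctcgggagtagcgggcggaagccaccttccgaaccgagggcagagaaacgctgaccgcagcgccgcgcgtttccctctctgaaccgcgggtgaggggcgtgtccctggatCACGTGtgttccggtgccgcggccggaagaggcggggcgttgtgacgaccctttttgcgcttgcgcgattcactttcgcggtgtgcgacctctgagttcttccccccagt
Ldha: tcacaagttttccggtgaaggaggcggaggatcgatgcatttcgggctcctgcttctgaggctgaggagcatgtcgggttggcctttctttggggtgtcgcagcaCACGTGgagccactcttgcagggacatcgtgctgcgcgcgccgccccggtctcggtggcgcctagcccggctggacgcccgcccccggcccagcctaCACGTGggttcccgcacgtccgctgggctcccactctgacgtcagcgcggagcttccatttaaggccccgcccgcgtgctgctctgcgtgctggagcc
Apex1: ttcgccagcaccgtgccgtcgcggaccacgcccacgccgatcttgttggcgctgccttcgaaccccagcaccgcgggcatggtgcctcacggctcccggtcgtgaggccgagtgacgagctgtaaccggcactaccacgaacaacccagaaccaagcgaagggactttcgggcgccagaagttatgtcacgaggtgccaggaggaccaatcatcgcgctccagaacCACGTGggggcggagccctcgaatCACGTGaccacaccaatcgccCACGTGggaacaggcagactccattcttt
Mxd4: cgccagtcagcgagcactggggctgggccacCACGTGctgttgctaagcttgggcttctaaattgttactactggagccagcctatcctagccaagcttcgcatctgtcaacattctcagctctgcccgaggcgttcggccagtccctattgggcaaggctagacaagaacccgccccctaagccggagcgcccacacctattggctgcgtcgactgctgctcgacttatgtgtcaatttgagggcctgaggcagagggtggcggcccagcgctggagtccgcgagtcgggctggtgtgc
The E-boxes of Ldha lie 145 and 48 bases before the start site, that of Nop2 lies 60 bases before it, and that of Mxd4 lies 219 bases before it.

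Ribosome production genes were lower by a similar margin to the MYC targets. In the nucleolar list all 33 members were at least 2-fold lower as deposited and 24 (72.7%) on both scales, with medians of -2.65 and -1.34. Nop2, an rRNA methyltransferase gene, went from 38.5 to 2.02 FPKM, the assembly factor gene Nop16 from 38.2 to 2.07 FPKM, and the pre-rRNA processing gene Utp20 from 17.2 to 1.16 FPKM. The nucleolar GTPase gene Gnl3 went from 106 to 23.01 FPKM, at -0.46 on the trend-removed scale. The ribosome's own proteins did not follow to the same extent. Of 78 ribosomal protein genes 76 were at least 2-fold lower as deposited, but only Rps2 (from 872 to 82.8 FPKM) was lower on both scales, and the medians were -1.997 and -0.24. Rpl3l, a muscle paralog of a ribosomal protein, was the 1 higher member (from 0.301 to 8.598 FPKM). Many ribosomal protein genes have near-identical copies, so single values are uncertain.

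The rest of the translation apparatus lay between these groups. Of 62 initiation and elongation factor genes 16 (25.8%) were lower on both scales, among them Eif5a, which lets ribosomes pass proline runs (from 590.4 to 54.3 FPKM), and the helicase gene Eif4a1 (from 347 to 32.8 FPKM). Eif4ebp1, which restrains the cap-binding factor, went from 55.7 to 4.52 FPKM. Of 20 aminoacyl-tRNA synthetase genes 9 (45.0%) were lower on both scales, with Farsb (from 35.3 to 3.41 FPKM), Wars (from 37.7 to 4.998 FPKM), Mars (from 72.1 to 9.26 FPKM) and Eprs (from 73.1 to 9.82 FPKM) lowest. Yars and Qars, of the same family, lay on the trend at 0.09 and 0.07. Chaperone genes were lower in 10 of 18 (55.6%), with medians of -2.78 and -1.18. Trap1, the HSP90 of mitochondria, went from 50.4 to 5.02 FPKM, Cct6a, a ring subunit of the TRiC folding chamber, from 201 to 19.3 FPKM, and Hspe1, which caps the HSPD1 ring, from 259.6 to 23.6 FPKM.

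**Figure D3:**
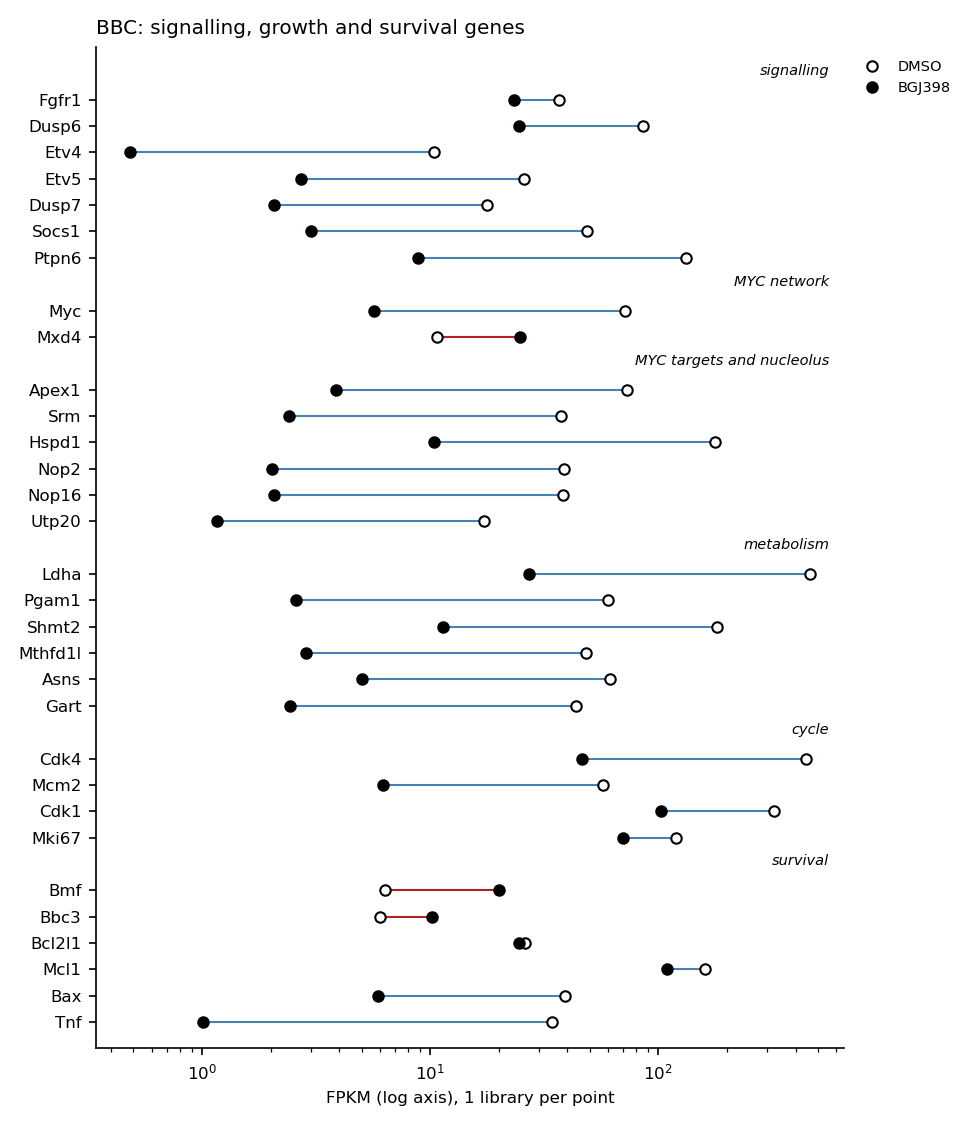
FPKM on a log axis of signalling, growth, metabolism, cycle and survival genes in BBC, 1 DMSO library (open) and 1 BGJ398 library (filled), joined by a blue line where BGJ398 is lower and a red line where it is higher. Growth and metabolic genes lie several-fold to the left with BGJ398, Myc from 71.3 to 5.66 FPKM, while Mxd4, Bmf and Bbc3 lie to the right.

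Nucleotide and polyamine synthesis were lower too. Of 30 purine and pyrimidine genes 15 (50%) were lower on both scales. Gart, which carries several steps of purine synthesis, went from 43.5 to 2.43 FPKM, Ctps, which makes CTP, from 32.4 to 2.46 FPKM, and Dut, which clears dUTP, from 133 to 10.5 FPKM. Aprt, of adenine salvage, went from 91.1 to 3.18 FPKM, at a locus it shares in the table with 63 other entries. Prps2, an isoform of the enzyme that makes the ribose phosphate donor, went only from 78.4 to 46.2 FPKM and lay above the trend (0.98). Of 10 polyamine genes 4 were lower on both scales, Srm, Odc1 (from 127 to 15.1 FPKM), Amd1 (from 46.8 to 6.08 FPKM) and Paox (from 6.81 to 1.21 FPKM), which cover synthesis and back-conversion. Sat1, which breaks polyamines down, lay above the trend at 1.01 while lower as deposited (-0.74).

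Glycolysis genes were lower in 11 of 24 members on both scales (45.8%), with medians of -2.08 and -1.001. Ldha (ENSMUSG00000063229, chromosome 7, 54096845 to 54110997), which makes lactate, went from 463 to 27.2 FPKM, Pgam1, a mutase of lower glycolysis, from 60.1 to 2.57 FPKM, and Aldoa, the aldolase gene, from 400.0 to 29.6 FPKM. The hexokinase genes parted. Hk2, the inducible form, went from 7.21 to 0.644 FPKM (trend-removed -1.98), while Hk1, the constitutive form, stayed at 36.2 and 36.4 FPKM and lay above the trend (1.63). Gapdh went from 318 to 47.3 FPKM (trend-removed -0.91).

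Serine, folate and amino acid supply genes, many of them targets of the stress factor ATF4, were lower in 13 of 28 members on both scales (46.4%), with medians of -2.11 and -0.89. Mthfd1l went from 48.4 to 2.84 FPKM, Shmt2 from 181 to 11.4 FPKM and Mthfd2 from 50.4 to 4.69 FPKM, all enzymes of mitochondrial folate metabolism. Asns, which makes asparagine, went from 61.4 to 5.03 FPKM. Slc7a11, the cystine importer gene, was the 1 member higher (from 3.72 to 8.52 FPKM, log2 ratio 1.01). Ddit3 and Ddit4, other stress genes of the list, lay above the trend at 0.65 and 0.79 and below 0 as deposited at -0.77 and -0.84. The CARE motif TGATGNAA, to which ATF4 binds with C/EBP proteins, was searched on both strands and neither contains nor is contained in the E-box. It was in 4.51% of all promoter table genes, 3.04% of those passing in BBC, 2.47% of those lower on both scales, 3.21% of those higher, 7 of 24 genes of this list (29.2%) and 5 of 12 tRNA synthetase genes (41.7%). The Asns window (chr6:7693160-7693459, strand -) is shown as the member best known for it, with the motif in capitals 23 bases before the start site.
Asns: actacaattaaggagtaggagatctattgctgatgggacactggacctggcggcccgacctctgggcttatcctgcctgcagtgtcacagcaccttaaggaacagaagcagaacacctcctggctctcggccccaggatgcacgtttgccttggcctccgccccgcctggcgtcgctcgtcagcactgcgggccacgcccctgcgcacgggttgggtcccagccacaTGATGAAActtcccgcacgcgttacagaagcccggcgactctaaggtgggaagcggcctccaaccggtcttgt

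Lipid and respiratory genes were lower too, with trend-removed medians nearer to 0 than that of glycolysis. Of 23 cholesterol genes, with medians of -1.90 and -0.61, 8 (34.8%) were lower on both scales, among them Acat2 at 13.8 and 1.65 FPKM and Cyp51 at 60.2 and 7.07 FPKM, both enzyme genes of sterol synthesis. In fatty acid synthesis Fasn (from 35.1 to 4.795 FPKM) and the desaturase gene Scd2 (from 86.1 to 9.48 FPKM) were the 2 of 14 lower on both scales. Nuclear genes of the respiratory chain and ATP synthase were lower in 29 of 78 (37.2%), with medians of -2.38 and -0.78, led by Atp5g1 (from 82.5 to 3.64 FPKM). The 12 mRNAs of the mitochondrial genome differed from their nuclear partners. Their medians were -0.66 and 0.996, so they were lower as deposited and above the trend, 5 of them at least 2-fold. mt-Co1 went from 5212 to 3484 FPKM and mt-Nd6 from 247 to 195 FPKM. Several mitochondrial genes overlap or abut, and their values lie at the top of the range, where few entries set the trend.

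In the cell cycle lists, DNA synthesis and mitosis were both lower as deposited, DNA synthesis by more. With the trend removed their medians differed in sign. All 36 replication genes were at least 2-fold lower as deposited, and 7 (19.4%) on both scales, with medians of -2.11 and -0.68. Mcm2, of the ring helicase that opens DNA, went from 57.1 to 6.22 FPKM, the origin factor gene Gins1 from 24.1 to 3.09 FPKM, Chaf1a, which loads histones behind the fork, from 17.7 to 2.57 FPKM, and the licensing factor gene Cdc6 from 19.3 to 2.99 FPKM. Clustered histone genes, transcribed in S phase, were lower in 30 of 60 (50%), with medians of -2.69 and -1.01, and their near-identical copies and mostly absent poly(A) tails make single values uncertain. Of 30 mitosis genes 23 (76.7%) were at least 2-fold lower as deposited and none on both scales, and their medians were -1.34 and 0.28. Cdk1, the mitotic kinase gene, went from 323 to 103 FPKM and lay near the trend (0.17). Mki67, the proliferation marker, and Cenpf lay above it at 1.02 and 1.14.

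G1 regulators lay on both sides of the trend. Cdk4, the kinase partner of D cyclins, went from 443 to 46.1 FPKM (-3.24, trend-removed -1.42). Ccnd3, the D cyclin of pre-B cells, went from 207 to 47.4 FPKM, at least 2-fold lower as deposited (-2.11) and near the trend (-0.32), and Ccnd2 went from 52.1 to 19.8 FPKM (trend-removed 0.23). The retinoblastoma genes Rb1 and Rbl2, which hold E2F factors, were at 41.5 and 39.8 and at 10.3 and 8.86 FPKM, and the inhibitor gene Cdkn1a stayed at 6.98 and 6.88 FPKM. These lay above the trend at 1.59, 1.02 and 1.07. The list had 3 of 21 members (14.3%) lower and none higher on both scales.

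Survival genes moved singly. Bmf (ENSMUSG00000040093, chromosome 2, 118354493 to 118375423), a BH3-only gene that frees BAX and BAK by binding BCL2 proteins, went from 6.32 to 20.1 FPKM (1.53, trend-removed 2.82). Bbc3, which encodes the BH3-only protein PUMA, went from 6.01 to 10.1 FPKM (trend-removed 1.81), and Bcl2l11, which encodes BIM, from 15.5 to 10.3 FPKM (0.77). The effector gene Bax was lower (from 39.1 to 5.88 FPKM, trend-removed -1.16). On the survival side Mcl1 went from 160.2 to 109 FPKM and Bcl2l1 stayed at 26.2 and 24.6 FPKM, with trend-removed ratios of 1.26 and 1.43, while Bcl2 was low throughout (from 3.14 to 0.9895 FPKM). Of 14 family members 2 were lower and 1 higher on both scales. Among 20 p53 targets 2 were higher, Btg2 and the stress gene Trp53inp1 (from 30.7 to 64.2 FPKM), and 2 were lower, Bax and the exonuclease gene Aen (from 21.5 to 3.03 FPKM).

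Genes of B cell identity were lower as deposited and lay above the trend on balance. The 18 passing genes of the pre-B receptor and B cell surface had medians of -0.95 and 0.70. Cd79a and Cd79b, the signalling chains of the receptor, went from 179 to 132 FPKM and from 232 to 139.6 FPKM, with trend-removed ratios of 1.38 and 1.09. The surrogate light chain genes Vpreb1 and Igll1 went from 171 to 92.6 FPKM and from 546 to 252 FPKM, at 0.93 and 0.65. Lower on both scales were Cd22, an inhibitory receptor gene (from 8.79 to 0.943 FPKM), and Cd74, the invariant chain of MHC class II (from 196 to 26.1 FPKM). Transcription factors of the lineage had medians of -0.64 and 0.62, with 9 of 26 (34.6%) at least 2-fold above the trend and 1 below it. Irf4, which acts in the exit from the pre-B stage, went from 25.3 to 36.8 FPKM (0.52, trend-removed 2.09), and Lef1 and Ikzf3 stayed within 0.09 and 0.06 log2 units of DMSO. Pax5, the commitment factor, went from 84.7 to 25.2 FPKM on the trend (-0.03), and Ebf1 from 35.04 to 17.3 FPKM (0.52). Id3, an inhibitor of E proteins, was the 1 factor lower on both scales (from 77.1 to 10.1 FPKM).

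Genes at the edges of the pre-B stage lay on both sides of DMSO levels. Igkc went from 2234 to 3726 FPKM (0.74, trend-removed 2.34), while the mu heavy chain gene Ighm went from 1301 to 612 FPKM. Prdm1, the plasma cell factor, was higher on both scales (from 2.78 to 11.4 FPKM, 1.72 and 2.72). In V(D)J recombination, the terminal transferase gene Dntt went from 61.1 to 118 FPKM (0.94, trend-removed 2.72). Genes of end joining went both ways. Lig4 and Xrcc6 went from 6.47 to 8.43 FPKM and from 49.7 to 53.7 FPKM. Xrcc5 went from 20.9 to 4.66 FPKM (trend-removed -0.71) and Nhej1 from 2.55 to 0.888 FPKM (trend-removed -1.08). Prkdc was the 1 of 12 list members lower on both scales (from 3.39 to 0.926 FPKM), and none was higher. Rag1 moved from 0.3599 to 1.69 FPKM, from near the filter, with a trend-removed ratio of 0.24. Of 14 blood stem and progenitor genes 2 were lower on both scales and 1 higher. Ly6a, which encodes SCA-1, went from 293 to 14.5 FPKM (-4.25, trend-removed -2.50) and Lyl1 from 34.7 to 4.83 FPKM, while Tal1, a transcription factor gene named after its values were seen, went from 1.37 to 4.28 FPKM (1.16, trend-removed 1.44).

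**Figure D4:**
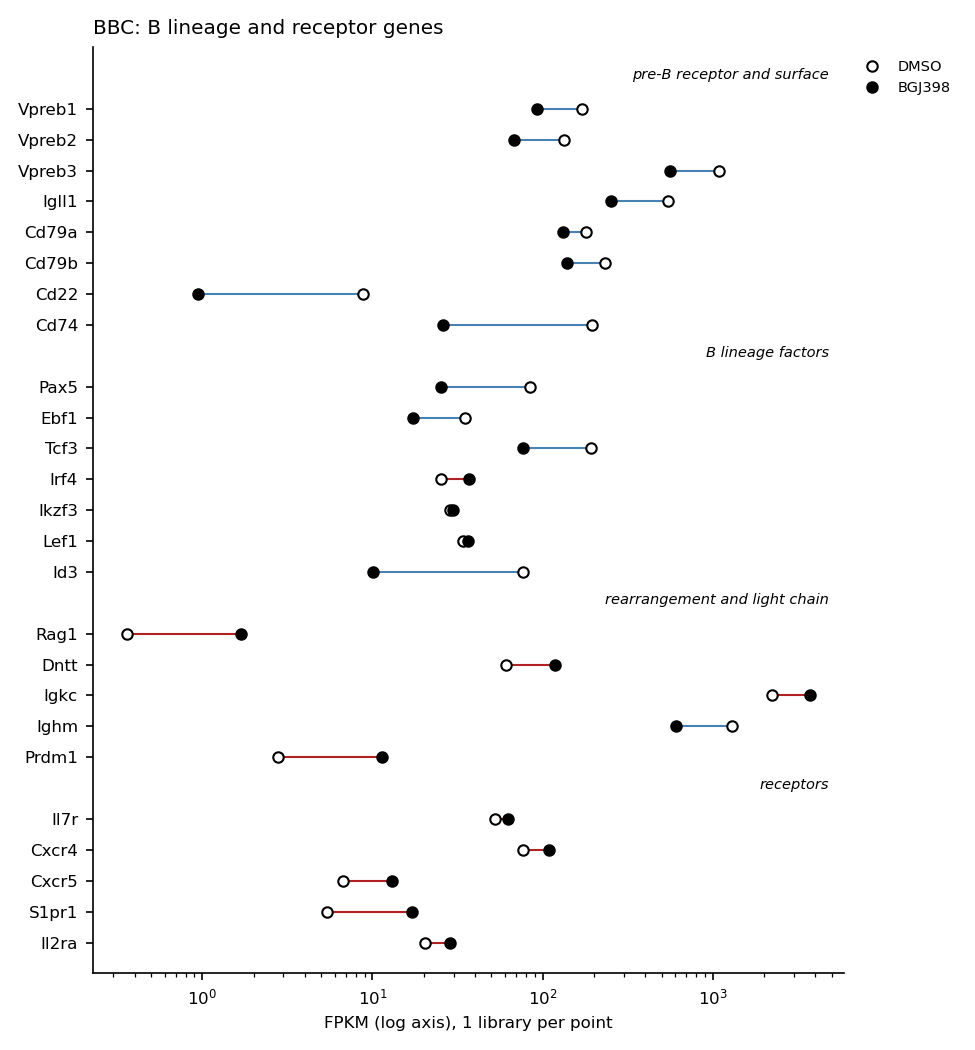
FPKM on a log axis of B lineage and receptor genes in BBC, 1 DMSO library (open) and 1 BGJ398 library (filled), joined by a blue line where BGJ398 is lower and a red line where it is higher. Cd79a shifts little, from 179 to 132 FPKM, while Cd22 lies far to the left with BGJ398 and Prdm1, S1pr1 and Igkc to the right.

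Receptors for homing and adhesion held both directions. Cxcr4, the receptor for the marrow chemokine CXCL12, went from 76.8 to 109 FPKM (0.50, trend-removed 2.28), Cxcr5 from 6.72 to 13.1 FPKM, and the integrin gene Itga4 from 9.62 to 14.6 FPKM. With S1pr1, 6 of 16 passing members were at least 2-fold above the trend, and 1 was higher on both scales. The list median was -0.33 as deposited and 0.76 trend-removed, and the latter was -0.034 without the filter on level and -0.092 over entries alone at their locus, so no direction is given for the list. Cytokine receptor genes lay closer to DMSO levels, with 0 of 20 past 2-fold on both scales.

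Inflammatory genes held both directions. Of 17 NF-kB genes 2 (11.8%) were lower on both scales, near the 10.3% of all entries, and 1 was higher, Traf1, an adaptor gene named after its values were seen (from 0.864 to 3.36 FPKM, 1.23 and 1.21). Tnf and its neighbour Lta, cytokine genes under NF-kB, went from 34.4 to 1.005 FPKM (-4.14, trend-removed -3.03) and from 10.3 to 0.777 FPKM (-2.67 and -2.07), while the NF-kB subunit genes Nfkb1 and Rela lay near the trend at -0.02 and 0.21 and the survival gene Birc3 above it at 1.49. Of 23 interferon response genes 6 (26.1%) were lower on both scales, with medians of -1.67 and -0.51. Gbp2, a guanylate-binding protein gene, went from 72.1 to 9.41 FPKM, Ifitm3 from 13.2 to 1.39 FPKM, Igtp from 43.6 to 6.13 FPKM and Bst2 from 10.1 to 1.23 FPKM. In the MHC class I list the chain genes H2-K1 and H2-D1 and B2m lay above the trend at 0.98, 0.82 and 0.91 and below 0 as deposited at -0.82, -0.94 and -0.71. The proteasome activator gene Psme2 was the 1 of 19 lower on both scales (from 136 to 19.6 FPKM). Of 12 class II genes 3 were lower, Cd74, Ctss (from 55.6 to 7.403 FPKM) and H2-DMa (from 12.3 to 2.300 FPKM), all of peptide loading, while the chain genes H2-Ab1 and H2-Aa went from 37.9 to 23.2 FPKM and from 8.01 to 6.16 FPKM.

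Outside the lists, the 15 largest trend-removed ratios in each direction gave a different set. Tlr13 (ENSMUSG00000033777, chromosome X, 103338543 to 103355832), a sensor of bacterial ribosomal RNA, went from 0.361 to 37.7 FPKM (4.83, trend-removed 5.87) and was far ahead. Next were Fgd4, an exchange factor gene for CDC42 (from 45.3 to 167 FPKM), Appl2, an endosome adaptor gene (from 28.3 to 98.1 FPKM), the steroid enzyme gene Hsd3b2 (from 12.3 to 47.6 FPKM) and the mitochondrial ribosome gene Mrpl48 (from 79.7 to 234 FPKM). The others were Mid1, Ssbp2, Pkib, Ltbp1, Il5ra, Caps2, Prdm11, Heatr7a, Prl8a1 and Cpa6, with trend-removed ratios from 2.82 to 3.29. The locus of Mid1 holds 6 entries, and those of Mrpl48, Ssbp2, Heatr7a and Cpa6 hold 2 each. Of these 15 genes 13 passed the filter also in ZNF, where 12 were higher on both scales, and 14 passed in BCRF8C, where 13 were.

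The 15 lowest genes outside the lists were headed by Iigp1 (ENSMUSG00000054072, chromosome 18, 60535683 to 60552281), an interferon-induced GTPase gene, which went from 171 to 5.72 FPKM (-4.68, trend-removed -3.09). Dctpp1, which clears dCTP, went from 112 to 4.35 FPKM, Arhgap27, a GTPase activator gene, from 94.5 to 3.78 FPKM, and Mif, a secreted cytokine gene, from 1483 to 82.1 FPKM. Several belong with the growth lists. Mthfd1, of cytosolic folate metabolism, went from 29.6 to 1.16 FPKM, Psmg4, a proteasome assembly chaperone gene, from 69.3 to 3.102 FPKM, and Pwp2 and Nop10, of ribosome production, from 20.5 to 0.894 FPKM and from 109 to 6.08 FPKM. Ifrd2, Comtd1, Acot7, Chchd6, Carm1, Acy1 and Cdca7 had trend-removed ratios from -2.83 to -2.34. The loci of Arhgap27 and Acot7 hold 2 entries each, and those of Comtd1 and Carm1 hold 3 each. All 15 passed the filter in both other lines, and 2 were lower on both scales in ZNF and 11 in BCRF8C.

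**Figure D5:**
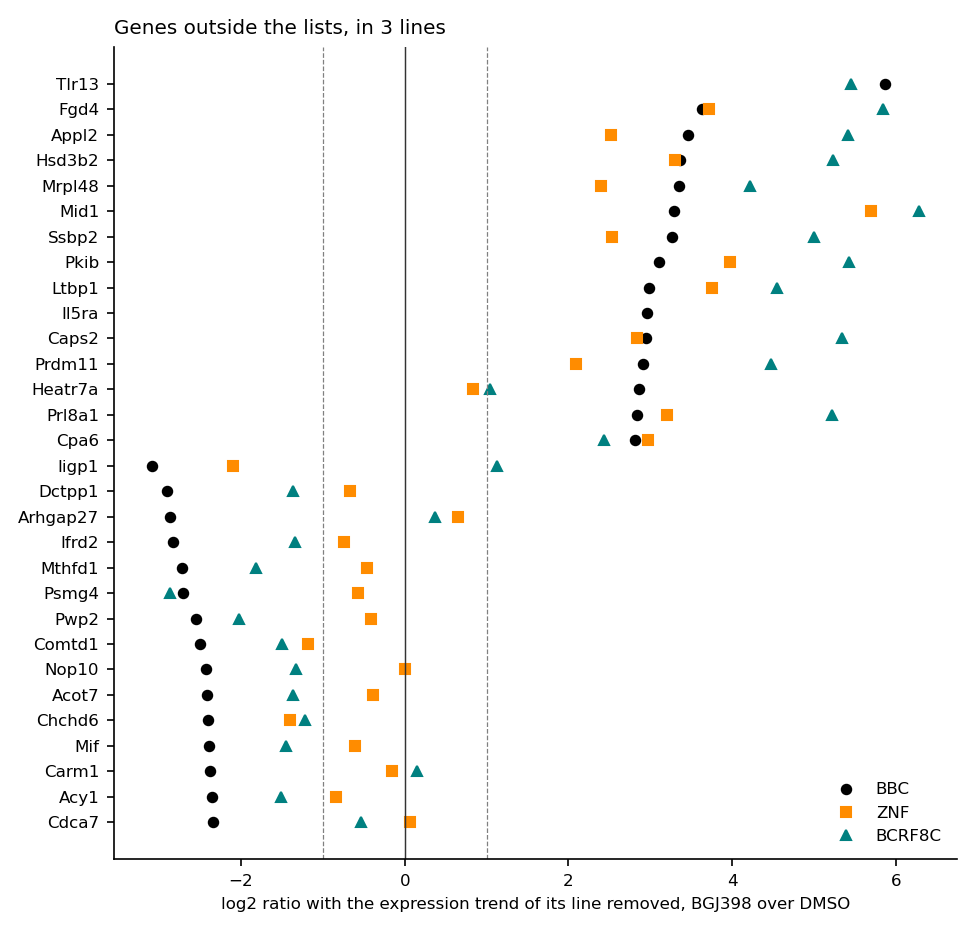
Trend-removed log2 ratio, BGJ398 over DMSO (x axis), of the 15 highest and 15 lowest BBC genes outside the lists, in BBC (circles), ZNF (squares) and BCRF8C (triangles), 1 library pair per point, with dashed lines at 2-fold. The higher genes lie right of 0 in each line that lists them, while 12 of the 15 lower genes lie between the dashed lines in ZNF.

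Entries past 2-fold on both scales in BBC and in another line are given as a share of each line's list. Of 11951 entries that passed in BBC and in ZNF, 525 were higher in BBC on both scales and 886 in ZNF (7.41%), and 331 were shared, which is 63.0% of the BBC entries and 37.4% of the ZNF entries. Lower were 1286 in BBC and 418 in ZNF (3.50%), with 147 shared, 11.4% and 35.2%. Of 12772 entries passing in BBC and in BCRF8C, 568 were higher in BBC and 1105 in BCRF8C (8.65%), with 370 shared, 65.1% and 33.5%. Lower were 1264 in BBC and 1404 in BCRF8C (11.0%), with 522 shared, 41.3% and 37.2%. Each line had its own DMSO library, so no library enters both sides. Across genes, which are not independent replicates, the trend-removed ratios of BBC had a Pearson r of 0.446 with those of ZNF and 0.543 with those of BCRF8C. The MYC target median was -1.57 in BBC, -0.16 in ZNF and -0.74 in BCRF8C on the trend-removed scale, and that of the ATF4 list was -0.89, -0.99 and -1.01. Myc itself went from 63.2 to 48.6 FPKM in ZNF and from 64.4 to 20.01 FPKM in BCRF8C. The difference between lines was not tested, since each line has 1 library per agent and a dose of its own under the order assumed above.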

How the data were processed

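RNA was sequenced from BBC cells with BGJ398 and with DMSO, 1 library each. Per the submitters' processing notes, bcl2fastq, TopHat2 2.0.12 and the build NCBIM37 were used, and no source used here gives the counting tool or strandedness. The deposited values are FPKM per gene entry, computed by the authors. Depth is unknown: FPKM steps that single reads would give were sought in low values, and the best step placed 25.5% (DMSO) and 28.3% (BGJ398) of them within 0.1 of a whole number, against 20% by even spacing.

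From these values, log2 ratios with a pseudocount of 1 FPKM were computed for entries whose mean reached 1 FPKM, and the trend was removed with limma 3.58.1 (R 4.3.3) loess, span 0.3 and 4 iterations. The steps were tested on simulated data. In lists, 1 entry per symbol was used, that with the widest locus, since 548 entries share a symbol, and 4564 passing entries share a locus with another. Starts were made 1-based. GENCODE vM21 served for exon lengths and gene types by gene ID (93.6% of passing entries matched).

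With 1 library per agent no test was made, and 2-fold is a rule of size. Named were, per list, up to 4 members each way past 2-fold on both scales with at least 5 FPKM in a library, defining genes, and members within 2-fold by value. Outside lists they were the 15 largest each way with at least 10 FPKM, leaving out clone names, pseudogenes, receptor, histone and segment families and small RNAs. Some genes the rule names are not reported here. Members and lists were chosen with earlier results of these data known. Alternatives were other pseudocounts, filters, scalings, spans and folds, entries alone at their locus and a length trend, the last 2 chosen after seeing the data.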

Additional observations from a re-analysis of the deposited data

Results flagged for a closer look

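Etv4 went from 10.3 to 0.484 FPKM in BBC, a log2 ratio of -2.93, and from 0.342 to 5.29 FPKM in ZNF, a log2 ratio of 2.23. With the trend removed the ratios were -2.44 and 1.86. Of the genes the naming rule picked it was the only one past 2-fold on both scales in BBC and past 2-fold on both scales the other way in another line. As deposited alone, further genes were at least 2-fold lower in BBC and at least 2-fold higher in another line, and those given here are examples. Pax5, Sh2b3 and Ighm were higher in ZNF, Arhgap27 and Spry1 in BCRF8C, and Lmo2, Klf2 and Gfi1b in both. In BCRF8C Etv4 went from 17.5 to 2.28 FPKM, in the BBC direction. Each value is 1 library, and the difference between lines was not tested.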

How the results depend on the processing

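No paired analysis was possible because BBC has 1 library per agent, and a fit paired by line over the 3 lines, which asks about all lines together, was not run. Counts of entries at least 2-fold apart moved with the settings. As deposited, the 1298 higher entries became 2224 with a pseudocount of 0.1, 381 with one of 5, 437 with a mean of at least 5 FPKM, 2842 with median-of-ratios scaling, 1995 with quantile normalization and 351 at 4-fold. The 6637 lower entries became 2692, 2361 and 2012 under the last 3. With the trend removed, the 1848 higher entries became 1002 with a pseudocount of 5, 1206 with a mean of at least 5 FPKM and 613 at 4-fold, and the 1721 lower ones 593, 940 and 345, and 916 with the trend taken on the DMSO library alone. The scalings moved the median of all entries from -0.87 to -0.13 and -0.076. Of the 54 list medians, trend removed, most kept their value within 1.5-fold under every alternative. Exceptions were MHC class I, 0.88 over entries alone at their locus, cytokine receptors, 0.86 with a mean of at least 5 FPKM, metallothioneins (-0.83), -2.59 with that filter and -2.003 over entries alone at their locus, and olfactory and vomeronasal receptors (0.26), 3.36 with that filter. The median of the homing and adhesion receptors (0.76) changed sign, to -0.034 without a filter and -0.092 over entries alone at their locus. The causes were not tested. Of 160 named genes none changed direction, and 57 moved by over 1.5-fold with a pseudocount of 5. Depth is unknown, so counting error cannot be given.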

Other observations

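Further gene groups of BBC are given as values. The 34 proteasome subunit genes had medians of -2.26 as deposited and -0.60 with the trend removed, and 6 were lower on both scales, with Psma5 and Psma7 going from 124 to 13.7 FPKM and from 249.6 to 27.1 FPKM. Genes of the endoplasmic reticulum (20, medians -1.29 and 0.23) and of lysosomes and autophagy (31, -1.16 and 0.22) each had 1 member lower on both scales. These were Sdf2l1 (from 83.5 to 9.49 FPKM) and Ctss. Herpud1, of protein disposal from the reticulum, was at 84.9 and 81.99 FPKM, and the autophagy-linked transcription factor gene Tfeb went from 24.9 to 8.81 FPKM. Of 24 cytoskeleton genes 3 were lower on both scales, among them the tubulin genes Tuba1b (from 333 to 24.3 FPKM) and Tuba4a (from 46.96 to 4.47 FPKM), while Tuba1a went from 69.1 to 60.5 FPKM and Tubb2b from 1.91 to 5.97 FPKM. Actb went from 3137 to 633 FPKM (trend-removed -0.65). Of 10 Notch genes, Dtx1, which modulates the receptor, was higher (from 5.502 to 12.99 FPKM) and Hes1, a target gene, lay on the trend (0.06). DNA methylation and Polycomb genes (20, medians -1.10 and -0.13) had no member past 2-fold on both scales. The nuclear noncoding RNA Malat1 went from 144 to 210.2 FPKM (trend-removed 2.36), while the snoRNA host genes Snhg7, Snhg3 and Snhg1 were lower at -1.50, -1.15 and -1.15. Mt1, a metal-binding metallothionein gene, went from 24.4 to 0.986 FPKM.

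Of 441 olfactory and vomeronasal receptor entries 194 passed the filter, with a median level of 0.727 FPKM in DMSO and 1.78 FPKM with BGJ398, and 19 were higher on both scales. Members at 1 FPKM pass through the library in which they are high, so these counts describe the members that passed and not the families. Copies of these genes can share reads. Olfr613 went from 32.1 to 104 FPKM, and Vmn1r58 from 12.5 to 48.1 FPKM. Of 291 zinc finger genes of the Zfp series 4 were higher and 6 lower on both scales, with a median of -0.02 with the trend removed, and Zfp488 went from 65.5 to 231 FPKM.

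The trend-removed ratio also moved with transcript length. Over 10 classes of exon length holding 11421 protein-coding entries, its median went from -0.38 in the shortest (75 to 1754 bases) to 0.31 in the longest (10088 to 123179 bases), and across genes the Spearman rho was 0.281. The length classes share the 2 libraries. Removing a trend on length as well left the MYC target median at -1.44, the nucleolar one at -1.21 and the pre-B surface one at 0.83. By type, 108 entries of microRNA genes had a median of 0 FPKM in DMSO and 80.1 FPKM with BGJ398. The medians were 4.13 and 28.5 FPKM for 18 entries of rRNA genes, and 40.2 and 24.97 FPKM for 234 of snoRNA genes. Of the microRNA entries 55 were at 0 in DMSO and 29 with BGJ398, of the rRNA entries 9 and 7, and of the snoRNA entries 58 and 63. An entry at 0 in a library passes the filter only through the other library. These medians therefore describe the entries that passed and not the gene types. Among 451 entries of chromosome X the median trend-removed ratio was 0.30, against -0.23 over 583 of chromosome 8, and the part of length or level in these values was not tested.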
